A study of Mus musculus with 8 samples.

Results

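The 10 genes described here are genes of the unfolded protein response and the integrated stress response: Atf4, Ddit3, Xbp1, Chac1, Trib3, Asns, Hspa5, Hsp90b1, Dnajb9 and Herpud1. They were taken by symbol, and all 10 were present among the 15283 genes listed for bulk liver and among the 22578 genes listed for liver nuclei. The data come from mice kept for 30 weeks on a MASH diet, a feeding model of metabolic dysfunction-associated steatohepatitis. Control mice carried flox/flox alleles, and Tgfbr1 MKO mice carried flox/flox alleles together with LysMcre, which places Cre under the Lyz2 locus of myeloid cells. Hepatocytes, which make up most of the liver and of its secretory capacity, are not a cell type that it targets. Bulk RNA-seq covered 3 control and 3 MKO libraries, and single-nucleus RNA-seq covered 1 pool of 3 livers per genotype. Both genotypes had the same diet, so no unstressed or chow-fed liver is part of these comparisons.

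The unfolded protein response is set off when unfolded proteins accumulate in the endoplasmic reticulum (ER), and it runs through the sensors PERK, IRE1 and ATF6. PERK and the other eIF2 kinases dampen translation in general while favouring translation of Atf4, and ATF4 then raises genes of amino acid supply and stress signalling such as Asns, Trib3, Chac1 and Ddit3. ATF6 and the spliced form of Xbp1 made by IRE1 raise ER chaperones and degradation factors, among them Hspa5, Hsp90b1, Dnajb9 and Herpud1. In the liver this response serves a large load of secreted protein and is known to be engaged in steatohepatitis.

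The promoters of the 10 genes were searched for elements known from these arms. Sequences are from RefSeq on GRCm38.p6, and all 10 genes matched an entry of 250 bases before and 50 bases after the start. On both strands the ER stress element (ERSE, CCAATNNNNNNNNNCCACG), its variant ERSE-II (ATTGGNCCACG) and the C/EBP-ATF response element (CARE, TGATGNAA) were searched. ERSE is held by 0.119% of 32851 promoters, ERSE-II by 0.0365% and CARE by 3.97%. ERSE matched in Hspa5 and Hsp90b1, ERSE-II in Herpud1, and CARE in Herpud1, Asns, Chac1 and Trib3, so that 6 of the 10 genes had a match. In Trib3 the CARE match lies after the start, at 15 to 22, and its sequence is not printed. Atf4, Ddit3, Xbp1 and Dnajb9 had no match to these letters in this window. The UPRE letters TGACGTGG (0.676% of promoters) and the CRE letters TGACGTCA (1.79%) were also searched and matched in 0 of the 10. The half-site CCACG, which is part of ERSE and ERSE-II, matched in 7 of the 10 against 32.8% of all promoters. The motifs were chosen after the expression values were known, and a match is a description of letters, not of binding. They were also picked because they are known from genes of these arms, so matches in such genes are no independent finding. The shares over all promoters say how rare the letters are, and enrichment was not tested.

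The stretches with ERSE, ERSE-II or CARE are shown because Hspa5 and Hsp90b1 held ERSE, Asns and Chac1 held CARE, and Herpud1 held both kinds. The co-chaperone gene Dnajb9 and the ATF4 target Ddit3 held neither, so this split does not cover all genes of either group. Capitals mark the matches, and each is written 5′ to 3′ on the strand of its gene. For Hspa5 (chr2:34772020-34772048, + strand) the ERSE lies at -65 to -47 from the RefSeq start. For Hsp90b1 (chr10:86705510-86705676, - strand) 1 ERSE lies at -212 to -194, and another, on the opposite strand, at -107 to -89. For Herpud1 (chr8:94386297-94386428, + strand) the CARE lies at -112 to -105 on the opposite strand, and the ERSE-II at -52 to -42. For Asns (chr6:7693214-7693243, - strand) the CARE lies at -23 to -16. For Chac1 (chr2:119351029-119351228, + strand) the CARE lies at -193 to -186 on the opposite strand. The short windows of Hspa5 and Asns fall inside a first exon of the GENCODE annotation, whose start lies further upstream than that of RefSeq.
Hspa5: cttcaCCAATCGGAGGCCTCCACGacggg
Hsp90b1: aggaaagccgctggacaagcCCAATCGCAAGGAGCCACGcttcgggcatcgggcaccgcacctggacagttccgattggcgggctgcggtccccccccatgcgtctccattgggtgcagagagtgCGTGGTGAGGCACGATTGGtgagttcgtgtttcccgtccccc
Herpud1: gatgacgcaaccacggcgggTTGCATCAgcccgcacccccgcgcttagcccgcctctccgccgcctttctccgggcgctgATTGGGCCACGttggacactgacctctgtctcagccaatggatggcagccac
Asns: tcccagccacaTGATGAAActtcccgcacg
Chac1: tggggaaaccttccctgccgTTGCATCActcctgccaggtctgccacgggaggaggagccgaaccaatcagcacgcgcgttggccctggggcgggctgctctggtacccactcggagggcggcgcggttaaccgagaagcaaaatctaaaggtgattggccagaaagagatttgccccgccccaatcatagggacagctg

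Each bulk library held between 17448117 and 23986319 reads over the listed genes. Bulk levels are given below as normalised read counts, and differences as log2 fold changes of MKO minus control of log2(value + 1), so that the change of genes with low counts is understated. Tgfbr1 lay between 737 and 810 in control and between 560 and 857 in MKO libraries, a log2 fold change of -0.13 ± 0.16 (SE, n = 3 each, adjusted p = 0.816 with limma), so bulk liver did not separate the genotypes by this gene. In the macrophage-like nuclei Tgfbr1 had 13.5 UMIs per 10000 in control and 4.87 in MKO. Of 12 macrophage markers 9 were called higher in MKO, and their summed level was 3278 to 7887 over the control libraries and 12031 to 18209 over the MKO libraries. Of 10 T and NK cell markers 4 were called higher, with sums of 146 to 215 in control and 392 to 557 in MKO. Of 5 measured neutrophil markers 1 was called higher, with sums of 136 to 151 and 211 to 297, and of 10 endothelial markers 1, with overlapping sums. The 8 cholangiocyte markers had 0 calls, but their sums of 1298 to 2994 in control lay above those of 1050 to 1233 in MKO. Hepatocyte markers, 12 in all, had 0 calls and overlapping sums, as had the other 5 marker lists. The mesothelial marker Muc16 was the only measured marker at 0 in a library. The part of these shifts in cell content in the results below was not tested, and in bulk liver fewer cells of a type and less RNA per cell cannot be told apart.

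In bulk liver, none of the 10 stress genes passed the main test between the genotypes. limma called 0 of 10 at an adjusted p under 0.05, against 3.05% of the 15249 genes tested, 452 of them higher and 13 lower. The quasi-likelihood test of edgeR on the recovered reads also called 0 of 10, against 3.16%. DESeq2 called 1, Dnajb9, against 4.49% of genes in either direction and 0.328% lower. At an unadjusted p under 0.05 there was 1 of 10, again Dnajb9, against 12.1% of genes (3.74% with MKO lower). The log2 fold change was below 0 for 9 of the 10 genes, against 54.1% of all genes tested, with a median of -0.29 over the 10 and -0.02 over all genes. Control 2 was the highest of the 6 libraries in 7 of the 10 genes, against 17.1% of all genes tested. Without control 2, 6 of the 10 genes were below 0 and their median was -0.08. Control 2 is singled out because it stood highest, and leaving it out raises the fold changes of those 7 genes. Without control 3, Xbp1 (-0.63), Hspa5 (-0.58), Hsp90b1 (-0.46), Chac1 (-0.72), Dnajb9 (-0.68), Herpud1 (-0.43) and Ddit3 (-0.19) were lower than with all 6 libraries. Asns (-0.73) and Trib3 (-0.32) were then slightly higher, and Atf4 stayed at 0.04.

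**Figure D1:**
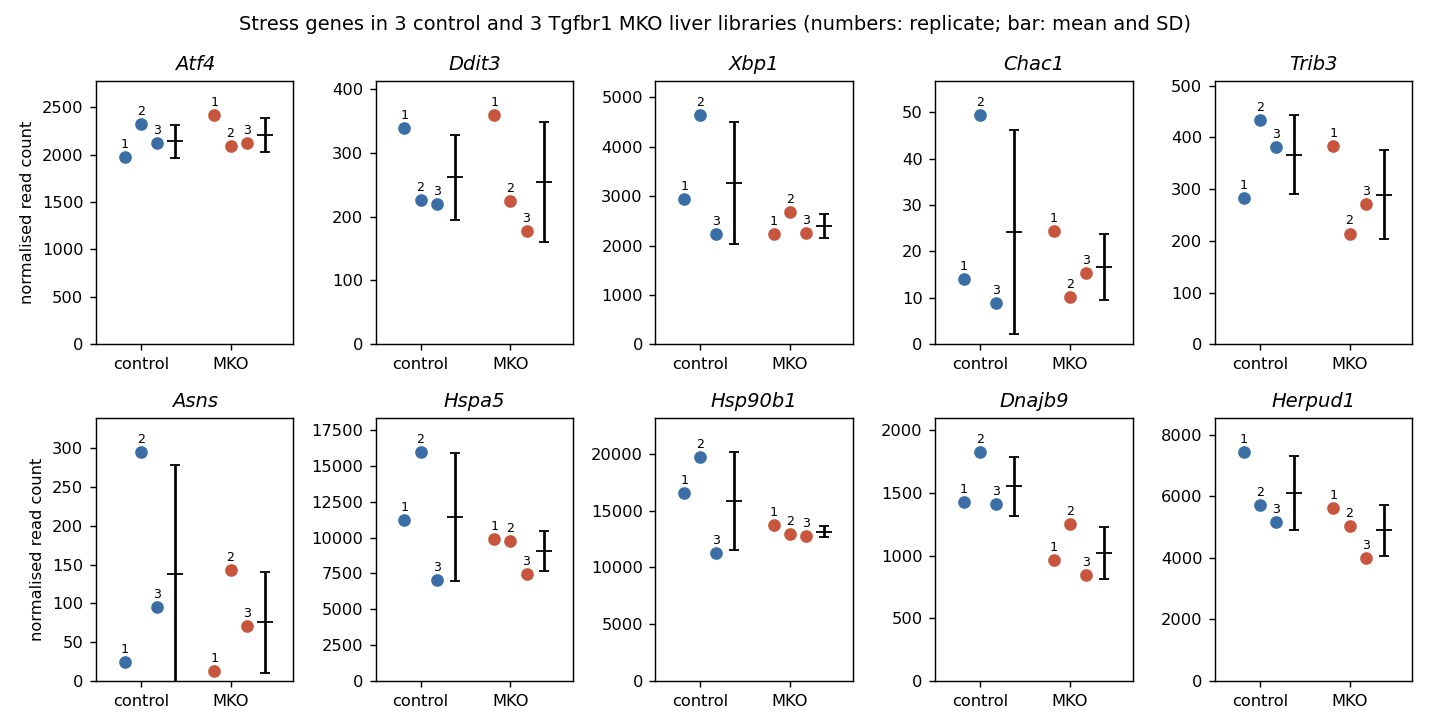
Normalised read counts (vertical axes, linear, starting at 0) of the 10 genes in the 3 control and 3 MKO libraries, each point labelled with its replicate number, with the mean and SD beside each group (the lower SD bar of Asns in control would pass below 0 and is cut there). Control 2 is highest in 7 genes, and Dnajb9 is the only gene whose groups do not overlap.

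Among the transcription factors, Atf4 (chromosome 15, 80255184 to 80257541, + strand), the central factor of the integrated stress response, was the steadiest. Atf4 was read at 1978, 2322 and 2122 in control libraries 1 to 3 and at 2413, 2086 and 2123 in MKO libraries 1 to 3. The groups overlapped, with MKO 1 highest and control 1 lowest of the 6, and the log2 fold change was 0.04 ± 0.11 (SE, n = 3 each, limma adjusted p = 0.924). Its spread within genotypes was larger than that of only 14.9% of the genes tested. Read counts do not measure translation, by which ATF4 protein is largely set.

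Ddit3 (chromosome 10, 127290829 to 127293753, + strand) encodes CHOP, a factor tied to cell death under lasting ER stress. Its levels were 339, 227 and 220 in control libraries 1 to 3 and 359, 224 and 178 in MKO libraries 1 to 3. The first library of each group was the high one and the others lay close together, so the groups overlapped (log2 fold change -0.08 ± 0.27, SE, n = 3 each, limma adjusted p = 0.946). Its exons share 68 bases with Mars on the opposite strand and 13 with Gm4189, and the sources used here do not give the strand setting of the counting.

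Xbp1 (chromosome 11, 5520659 to 5525893, + strand), whose transcript IRE1 splices into the active form, was read at 2938, 4637 and 2224 in control and at 2240, 2684 and 2260 in MKO libraries. Control 2 stood above the other 5 libraries, which overlapped. The log2 fold change was -0.39 ± 0.24 (SE, n = 3 each, limma adjusted p = 0.599), and -0.10 without control 2. Counts over the whole gene do not separate spliced from unspliced Xbp1.

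Of the ATF4 targets, Asns (chromosome 6, 7675169 to 7693254, - strand), which makes asparagine, varied most. It was read at 23.9, 295 and 95.6 in control libraries 1 to 3 and at 12.2, 143 and 71.3 in MKO libraries 1 to 3. The highest library was 24.2-fold above the lowest, and within a genotype the range was 12.3-fold in control and 11.7-fold in MKO. Its spread within genotypes, an SD of 1.78 on the log2 scale, was larger than that of 99.5% of the genes tested. The log2 fold change of -0.79 ± 1.01 (SE, n = 3 each, limma adjusted p = 0.824) was smaller than its error, and it was 0.07 without control 2 and 0.19 without MKO 1.

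Chac1 (chromosome 2, 119351229 to 119354381, + strand), which degrades glutathione, was scarce. Its values were 14.1, 49.3 and 8.87 in control and 24.4, 10.2 and 15.4 in MKO libraries, from 9 to 47 recovered reads. Control 2 again stood apart, and the spread within genotypes was larger than that of 96.9% of genes. The log2 fold change was -0.23 ± 0.61 (SE, n = 3 each, limma adjusted p = 0.925), turning to 0.45 without control 2.

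Trib3 (chromosome 2, 152337422 to 152344032, - strand) encodes a pseudokinase that feeds back on ATF4 and CHOP. It was read at 283, 434 and 382 in control and at 383, 214 and 271 in MKO libraries. MKO 1 lay among the controls and the other 2 MKO libraries lay below them, giving a log2 fold change of -0.36 ± 0.24 (SE, n = 3 each, limma adjusted p = 0.626).

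Dnajb9 (chromosome 12, 44205559 to 44210326, - strand), an ER co-chaperone of Hspa5 that holds IRE1 in check, showed the clearest difference of the 10. It was read at 1427, 1826 and 1407 in control libraries 1 to 3 and at 962, 1248 and 843 in MKO libraries 1 to 3. Every control library lay above every MKO library; of all genes tested, 19.4% had groups that do not overlap and 9.02% did so with MKO lower. The means were 1553 ± 236 and 1018 ± 208 (SD, n = 3 each), and the log2 fold change was -0.62 ± 0.17 (SE) with an adjusted p of 0.123 by limma and 0.0397 by DESeq2. In the authors' deposited table its adjusted p is 0.135. Leaving out 1 library at a time gave limma adjusted p from 0.0697 to 0.396. Its exons share 14 bases with Mir5627 on the opposite strand.

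Hspa5 (chromosome 2, 34771970 to 34777547, + strand), the ER chaperone BiP that keeps the 3 sensors inactive, was read at 11251, 15962 and 7067 in control and at 9922, 9779 and 7486 in MKO libraries. The control libraries spanned 2.26-fold and enclosed all 3 MKO libraries. The log2 fold change was -0.27 ± 0.27 (SE, n = 3 each, limma adjusted p = 0.777), and 0.01 without control 2.

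Hsp90b1 (chromosome 10, 86690209 to 86705509, - strand), the HSP90 chaperone of the ER, followed the same order of libraries as Hspa5. It was read at 16588, 19740 and 11228 in control and at 13688, 12950 and 12769 in MKO libraries. The MKO libraries lay within 1.07-fold of each other, while the controls spanned 1.76-fold around them (log2 fold change -0.23 ± 0.21, SE, n = 3 each, limma adjusted p = 0.730). Without control 2 it was -0.06. Its exons share 415 bases with 1810014B01Rik on the opposite strand, and 133 with Gm25745 and 63 with Gm15344 on the same strand.

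Herpud1 (chromosome 8, 94386438 to 94395377, + strand), which helps assemble the ER-associated degradation machinery, was read at 7442, 5729 and 5157 in control and at 5633, 5046 and 4011 in MKO libraries. Here control 1 was highest, and MKO 1 lay among the controls. The log2 fold change was -0.32 ± 0.18 (SE, n = 3 each, limma adjusted p = 0.553).

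Per kilobase of merged exons, the control means ran from 5611 normalised reads for Hsp90b1 over 3130 for Herpud1 and 3044 for Hspa5 to 1367 for Xbp1 and 1241 for Atf4. Below these stood Dnajb9 at 631, Ddit3 at 294, Trib3 at 181, Asns at 63.9 and Chac1 at 14.7. In the MKO libraries the order differed only in that Atf4, at 1279 per kilobase, stood above Xbp1, at 1002. Neighbours such as Herpud1 and Hspa5, or Xbp1 and Atf4, lay within the spread of their libraries. So Hsp90b1, Herpud1 and Hspa5 stood at the top and Ddit3, Trib3, Asns and Chac1 at the bottom in both genotypes.

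**Figure D2:**
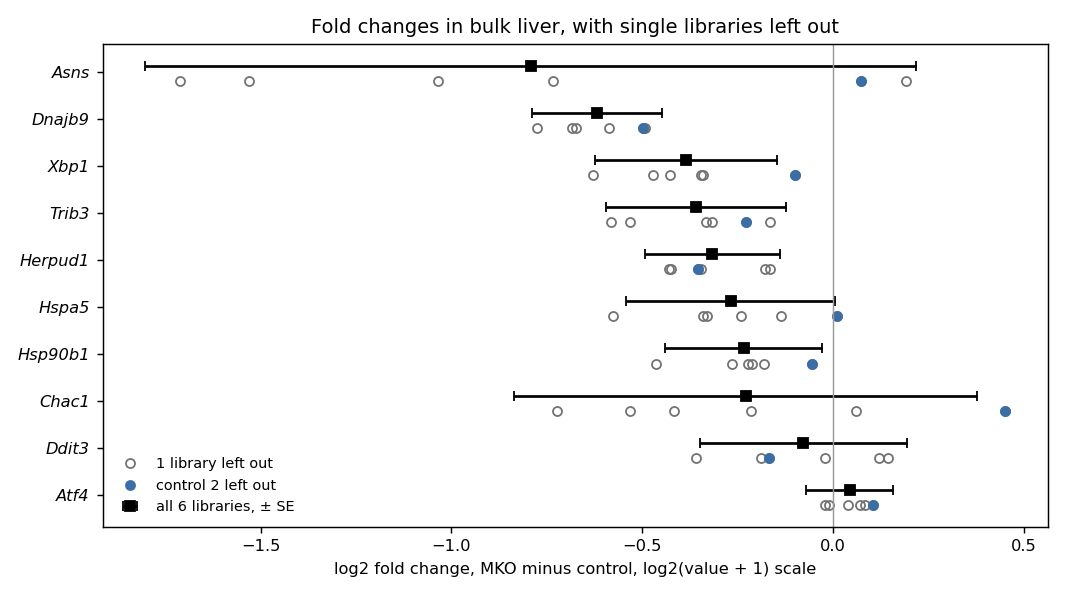
Log2 fold change of MKO minus control (horizontal axis, log2(value + 1) scale) for each gene with all 6 libraries (squares, bars ± SE) and with 1 library left out (circles, filled where control 2 is the one left out). Without control 2, Asns, Hspa5 and Chac1 pass to the other side of 0 and Xbp1 and Hsp90b1 come close to it, while Dnajb9 stays at -0.50.

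The genes whose 6-library pattern was closest to a stress gene differed by gene. Likeness was the root mean square distance between centred log2 values over 11500 genes with a mean of at least 50, a description over only 6 libraries. Closest to Hspa5 were Gmppb (0.119), Ang (0.128) and the ER protein disulfide isomerase Pdia4 (0.139). Closest to Asns were Adcy1 (0.534), Igfbp1 (0.758) and Syt12 (0.766). Igfbp1 was read at 2065, 5761 and 3418 in control and at 740, 4051 and 5411 in MKO libraries, lowest in MKO 1 and highest in control 2 as Asns was. Closest to Ddit3 were Crocc (0.0762), 9430015G10Rik (0.0783) and the splicing cyclin Ccnl2 (0.0786), which share its high first libraries. Closest to Trib3 were Fzd6 (0.0762), Rpp21 (0.129) and Gsta3 (0.130).

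The rest of the pathway was read in 10 lists of 115 other genes, grouped by role. limma called 0 of the 115, against the 3.05% of all genes above, and edgeR and DESeq2 also called 0. Of the limma calls over all genes 452 were higher and only 13 lower, so the 3.05% is mostly a share of higher calls. At an unadjusted p under 0.05 there were 9 of 115, against 12.1% of all genes. MKO was lower in 8 of these, against 3.74% of all genes, with Ddit4 as the higher one, and 5 of the 8 were ER chaperones and folding enzymes. Without control 2 there were 3 lower, against 1.92%, and 0 of them were ER chaperones. The groups did not overlap in 13 of 115, against 19.4% of all genes, and all 13 had MKO lower, against 9.02%. Fold changes were negative for 99 of 115 genes, with a median of -0.22 (-0.15 without control 2), beside -0.02 over all genes tested. Upper quartile scaling moved the median of all genes to 0.03, a smaller step than these medians.

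The lists upstream of the 10 genes held no call. Among 8 genes of the PERK arm and the eIF2 kinases the median log2 fold change was -0.11. PERK itself (Eif2ak3) was at -0.41 (limma adjusted p = 0.489), and the phosphatase subunits that reverse eIF2 phosphorylation, Ppp1r15a and Ppp1r15b, were at -0.16 and -0.04, the latter passing 0 under upper quartile scaling. Among 6 genes of the IRE1 and ATF6 sensors the median was -0.15. IRE1 (Ern1) was at -0.30, the protease Mbtps1 that cleaves ATF6 at -0.15, and the liver ER-bound factor Creb3l3 at 0.05.

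ATF4 partners and outputs, 14 genes, had a median of -0.05 with signs on both sides. Cebpg, a partner of ATF4, was read at 1798, 1870 and 1880 in control and at 1481, 1661 and 1388 in MKO libraries, without overlap (log2 fold change -0.30, limma adjusted p = 0.291). Ddit4, an inhibitor of mTORC1, was at 0.61 (adjusted p = 0.393), and Atf5, the member with the highest counts, at -0.03, passing 0 under upper quartile scaling. The 14 ATF4 amino acid genes had a median of -0.25 (-0.05 without control 2). The serine synthesis enzyme Psat1 was read at 44.5, 71.4 and 53.2 in control and at 24.4, 41.8 and 24.1 in MKO libraries (-0.90, adjusted p = 0.235), and the glycine transporter Slc6a9 was at -0.49 (adjusted p = 0.166). Cth, which makes cysteine, was at 0.78 (adjusted p = 0.464) and rested on MKO 3 at 25686, against 6768 to 9237 in the other 5 libraries. Among 12 tRNA synthetases 11 were below 0 (10 under upper quartile scaling and 9 without control 2), with a median of -0.17; Sars was at -0.30, Nars at -0.26 and Aars at -0.10.

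All 18 other ER chaperones and folding enzymes were below 0, with a median of -0.38; without control 2 the median was -0.22, and P4hb and Ppib, a prolyl isomerase, stood above 0. The oxidase Ero1lb was read at 1198, 1283 and 984 in control and at 730, 953 and 824 in MKO libraries (-0.47, limma adjusted p = 0.188). The lectin chaperone Canx was at -0.38 (adjusted p = 0.278) and the member with the highest counts, the disulfide isomerase P4hb, at -0.10. The 14 ER-associated degradation genes were all below 0 too (13 under upper quartile scaling, where Os9 passed 0, and 11 without control 2), with a median of -0.20, Vcp at -0.26 and Sel1l at -0.24. So were the 12 genes of ER translocation and export (9 without control 2), with a median of -0.25, Sec63 at -0.25 and Ssr3 at -0.33. None of these passed the test, and the members of a list share the libraries in which they were read.

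Stress genes outside the ER had 0 calls as well. The 10 cytosolic heat shock genes were also all below 0, as the ER lists were. Their median was -0.33, which became -0.58 without control 2, the opposite shift to that of the ER lists. In this list Hsph1 was highest in control 1 at 3389 and Hspa8 was at -0.05, passing 0 under upper quartile scaling. The 7 mitochondrial stress genes were all below 0 too. Their median was -0.13, with the protease Lonp1 at -0.20, Hspd1 at -0.23 and Hspa9 at -0.15.

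**Figure D3:**
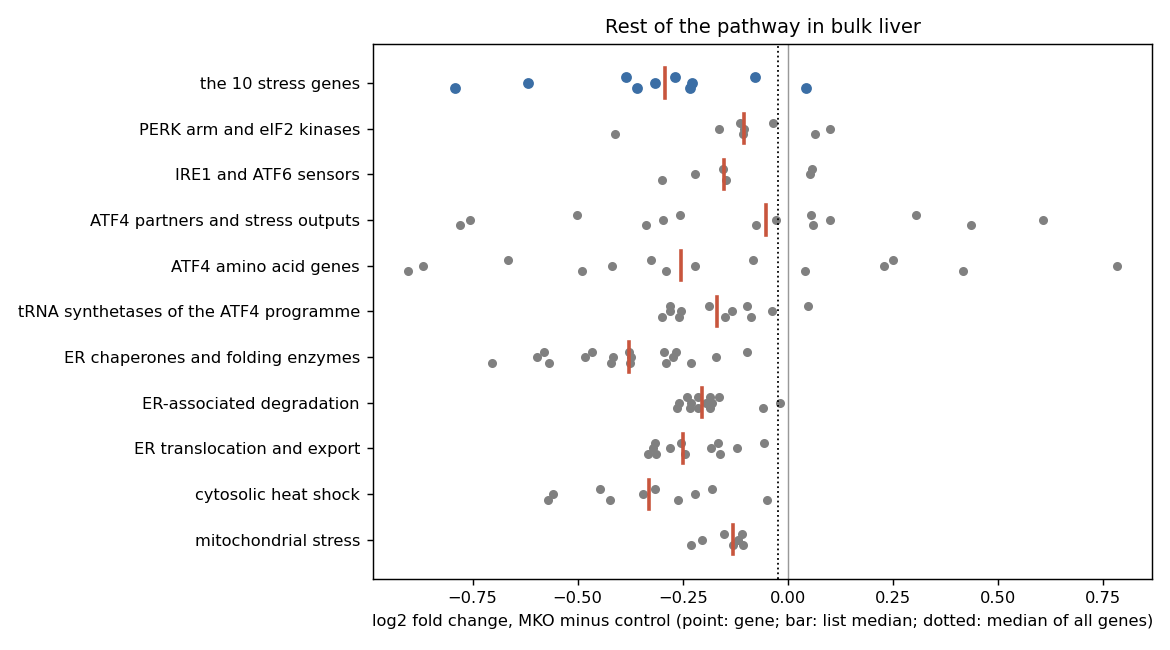
Log2 fold change of MKO minus control (horizontal axis) of the 10 stress genes and of 115 other genes in 10 lists, 1 point per gene, with each list's median as a bar and the median of all genes tested (-0.02) as a dotted line. The ER, cytosolic heat shock and mitochondrial lists lie wholly below 0 with all 6 libraries and this scaling. Os9 and Hspa8 pass 0 under upper quartile scaling. The ATF4 partners and amino acid genes spread to both sides.

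The nuclei show where in the liver these genes were read. Values are means per 10000 UMIs in 13 clusters, for 1 pool per genotype, so no test and no error could be given. Clusters 0, 1 and 3 were hepatocyte-like, 2 macrophage-like, 4 and 9 endothelial-like, 5 stellate and fibroblast-like, 6 cholangiocyte-like, 7 T and NK cell-like, 8 B and plasma cell-like, 11 plasmacytoid dendritic cell-like and 12 mesothelial cell-like, from their markers. Cluster 10 was not named, since 4 of its 10 leading genes were markers of dividing cells while 9 of 12 macrophage markers were enriched. A log2 ratio of MKO over control is given only where the larger value reached the 90th percentile of the cluster, and 1/10 of that percentile was added as a pseudocount. Of the 10 genes, Hspa5 reached that level in 7 clusters, Hsp90b1 in 12 and Herpud1 in 3, and the other 7 genes in 0.

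In the hepatocyte-like clusters the chaperone and degradation genes stood higher in the MKO pool in 2 clusters and lower in the third. Hspa5 went from 0.778 to 1.86 in cluster 0 (log2 ratio 1.14) and from 0.860 to 2.20 in cluster 1 (1.24), control to MKO, while in cluster 3 it was 0.976 and 0.644, below the level for a ratio. Hsp90b1 went from 1.87 to 3.22 in cluster 0 (0.75), from 1.65 to 3.85 in cluster 1 (1.16) and from 1.74 to 1.33 in cluster 3 (-0.36). Herpud1 went from 2.38 to 5.77 in cluster 0 (1.24), from 3.40 to 5.11 in cluster 1 (0.57) and from 2.51 to 0.838 in cluster 3 (-1.45). Thus 4 values of a gene in a cluster were at least 2-fold higher in the MKO pool, all in clusters 0 and 1, and 1 was at least 2-fold lower, in cluster 3. Over all genes reaching the level, 1.96% in cluster 0 and 1.67% in cluster 1 were at least 2-fold higher, and 3.5% in cluster 3 were at least 2-fold lower. Ratios above 0 in clusters 0 and 1 and below 0 in cluster 3 were found for 10.5% of the 1754 genes reaching the level in all 3, a pattern chosen after its values were seen.

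Xbp1, Dnajb9 and Ddit3, which did not reach the level for a ratio, had the same order. Xbp1 went from 0.699 to 1.0 in cluster 0, from 0.660 to 1.22 in cluster 1 and from 0.984 to 0.522 in cluster 3. Dnajb9 went from 0.218 to 0.393, from 0.198 to 0.397 and from 0.195 to 0.167 in the same clusters. So in nuclei of clusters 0 and 1 it stood higher in the MKO pool, whereas in bulk liver it was lower in every MKO library. These are unlike measures, nuclear RNA as a share of a cluster's UMIs and RNA of the whole tissue, and the cause of the difference was not tested. Ddit3 went from 0.202 to 0.375 in cluster 0, from 0.213 to 0.288 in cluster 1 and from 0.319 to 0.0911 in cluster 3. Atf4 did the reverse, from 0.875 to 0.689, from 0.864 to 0.595 and from 0.812 to 0.943. Trib3 and Asns were highest in the control pool in hepatocyte-like nuclei, Trib3 at 0.135 in cluster 0 and Asns at 0.136 in cluster 3, and both were lower in the MKO pool there, at 0.0748 and 0.0239. Chac1 was listed at 0 in 9 clusters of the control pool and 8 of the MKO pool.

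**Figure D4:**
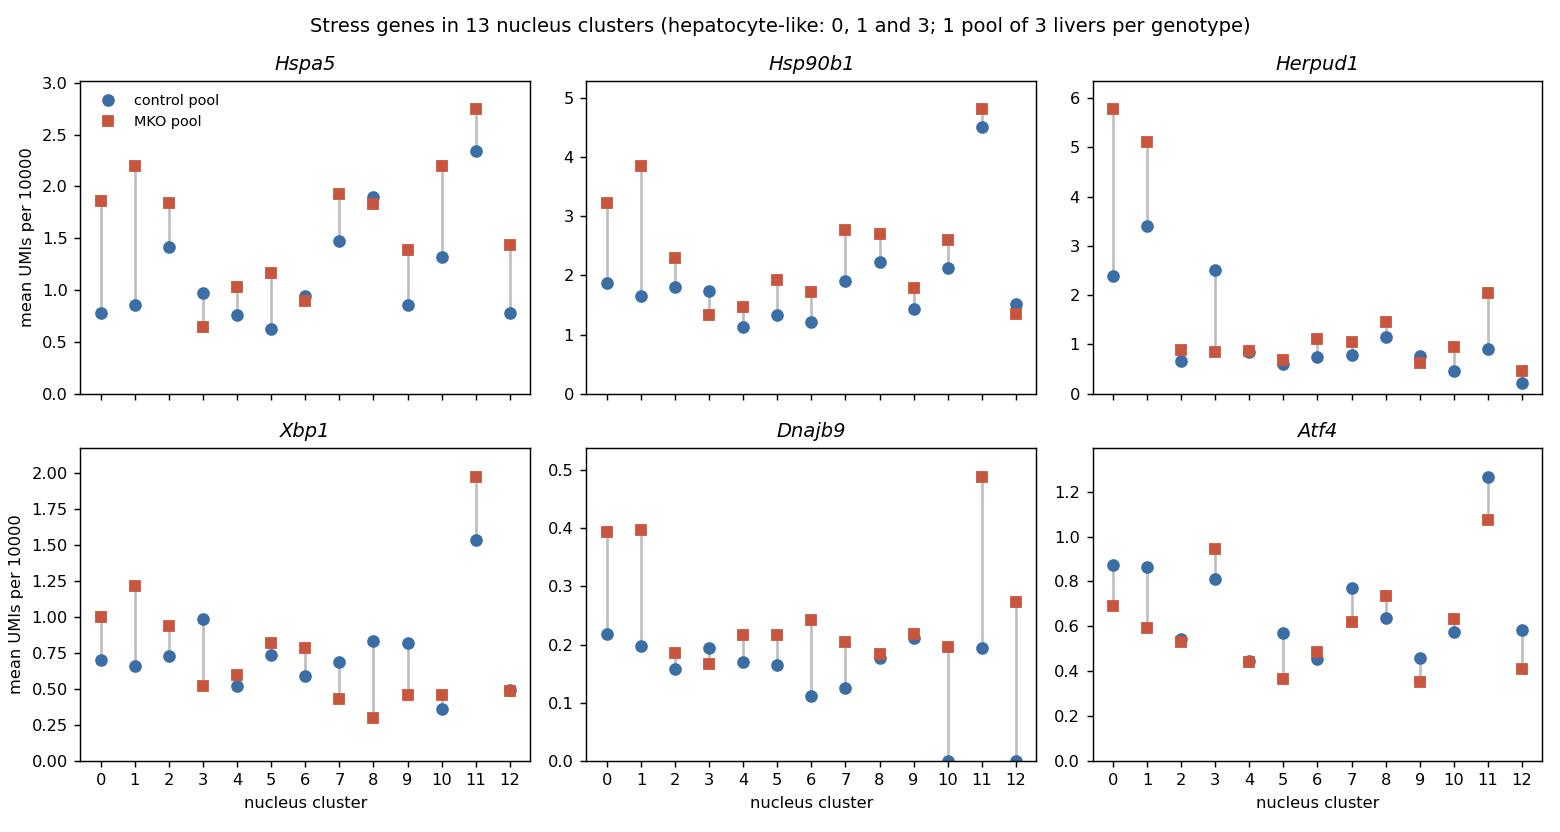
Mean UMIs per 10000 (vertical axes, linear, starting at 0) of 6 of the genes in the 13 nucleus clusters (horizontal axes), control pool as circles and MKO pool as squares, 1 pool of 3 livers each. Hspa5, Hsp90b1 and Herpud1 are higher in the MKO pool in clusters 0 and 1 and lower in cluster 3, and Hspa5, Hsp90b1, Xbp1 and Atf4 are highest in cluster 11 in both pools.

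Outside hepatocyte-like nuclei no ratio of Hspa5 or Hsp90b1 reached 2-fold, against a share of genes at least 2-fold higher that ran from 1.68% in cluster 8 to 11.1% in cluster 10. In the macrophage-like cluster, a myeloid cell type that LysMcre targets, Hspa5 went from 1.41 to 1.84 (log2 ratio 0.35) and Hsp90b1 from 1.80 to 2.30 (0.33), beside 5.04% of genes at least 2-fold higher there. In the other clusters that reached the level the ratio of Hspa5 lay between -0.05 (cluster 8) and 0.65 (cluster 10), and that of Hsp90b1 between 0.09 (cluster 11) and 0.51 (cluster 7). The plasmacytoid dendritic cell-like cluster had the highest Hspa5 (2.34 in the control and 2.74 in the MKO pool), Hsp90b1 (4.51 and 4.80), Xbp1 (1.54 and 1.98) and Atf4 (1.27 and 1.08). Herpud1 there was at 0.903 and 2.05, just under the level for a ratio. In B and plasma cell-like nuclei Xbp1 was at 0.835 and 0.298, control and MKO. Over the 13 clusters the MKO pool was higher in 12 for Dnajb9, 11 for Hsp90b1 and Herpud1, 10 for Hspa5 and Ddit3, 8 for Xbp1, 4 for Atf4 and Trib3, 3 for Asns and 2 for Chac1. The MKO pool was lower in 7 clusters for Trib3, 8 for Asns and 3 for Chac1, and the rest were at 0 in both pools. Among 5470 genes above 0 in every column, 10.1% were higher in the MKO pool in at least 11 clusters. Dnajb9, Ddit3, Trib3, Asns and Chac1 are not among these genes. Dnajb9 and Ddit3 were each at 0 in 2 clusters of the control pool.

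Across the 26 columns of clusters and pools, the genes most like Hspa5 by Spearman correlation were Hsp90b1 (0.866), the ER disulfide isomerase Pdia3 (0.852) and Ppia (0.798), and those most like Xbp1 were Siglech (0.699), Evi5 (0.611) and Cdip1 (0.596). These columns share 2 libraries and are a description only.

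The lists of other secretory pathway genes, and that of cytosolic heat shock genes outside this pathway, had the same order in hepatocyte-like nuclei. Of 18 ER chaperones and folding enzymes, 17 were higher in the MKO pool in cluster 0, 16 in cluster 1 and 2 in cluster 3. Their summed level went from 7.68 to 14.6, from 8.09 to 16.3 and from 9.36 to 7.08. ER-associated degradation genes were higher in 11, 12 and 3 of 14, ER translocation and export genes in 11, 11 and 3 of 12, and cytosolic heat shock genes in 10, 9 and 3 of 10. Of the 10 stress genes 6, 8 and 1 were higher. Over all genes above 0 in both pools the MKO pool was higher for 50.4%, 54% and 53.1%. The list counts, here and for the other lists below, take in genes at any level. They also count genes at 0 in 1 pool, such as Hspa1a (0 in control and 0.00533 in MKO in cluster 0). In clusters 0, 1 and 3 only 3, 5 and 2 of 18 ER chaperones and folding enzymes reached the level for a ratio. Of 10 cytosolic heat shock genes 1, 1 and 0 reached it. Disulfide isomerase Pdia3 went from 0.808 to 2.27 in cluster 0, from 0.814 to 2.19 in cluster 1 and from 0.901 to 0.581 in cluster 3, and was named here after its values were seen.

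By the number of genes higher, the other 6 lists showed no such order in these nuclei. Of 14 ATF4 amino acid genes, 6, 5 and 5 were higher in the MKO pool in clusters 0, 1 and 3, with sums from 9.03 to 5.82, from 21.1 to 5.88 and from 11.3 to 27.1. Cth made up most of this, at 17.4 and 2.36 in cluster 1 and at 7.27 and 23.5 in cluster 3. Of 12 tRNA synthetases 7, 3 and 4 were higher, and of 8 genes of the PERK arm and eIF2 kinases 2, 1 and 4. Of 14 ATF4 partners and outputs 6, 6 and 5 were higher, of 6 genes of the IRE1 and ATF6 sensors 3, 3 and 3, and of 7 mitochondrial stress genes 5, 3 and 4. The summed level of the sensor list did have the order, from 8.10 to 10.0, from 9.04 to 9.30 and from 10.1 to 8.32. Atf6 (2.55 to 3.67, 2.71 to 2.84 and 3.35 to 1.95) and Ern1 (1.88 to 2.52, 2.23 to 2.47 and 3.12 to 2.73) shared it. Creb3l3 did not, at 2.48 and 2.64 in cluster 3.

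**Figure D5:**
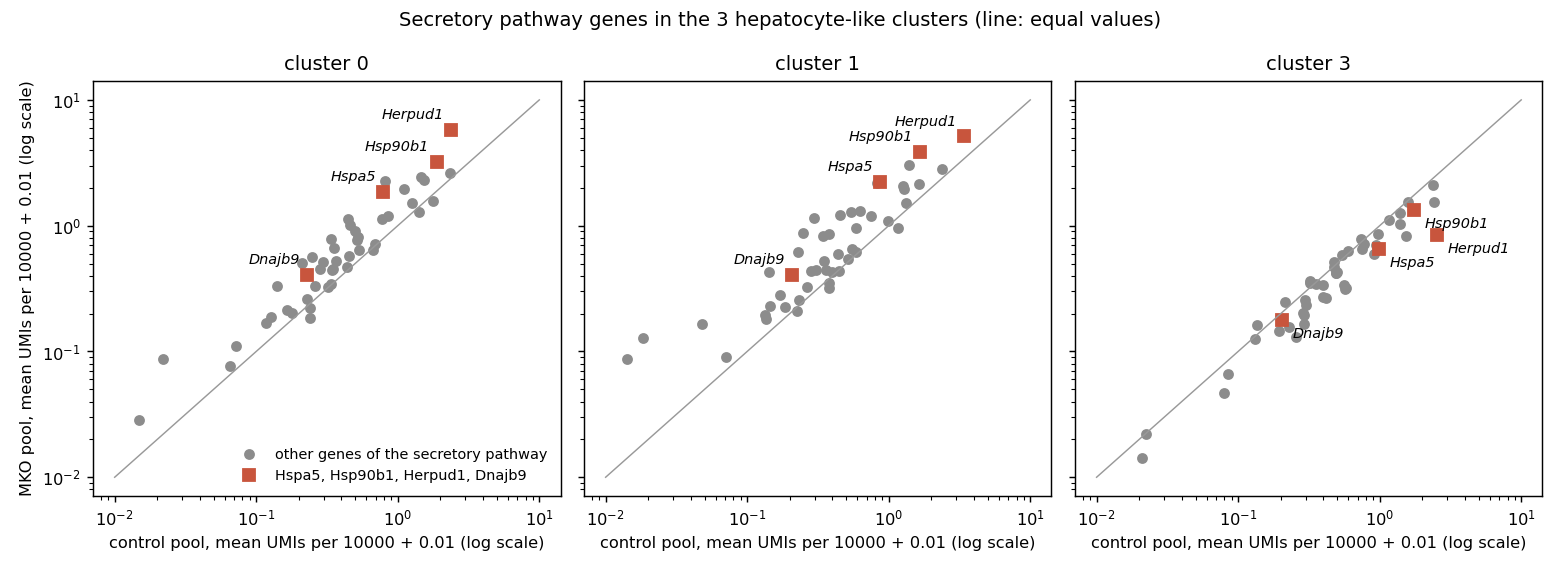
Mean UMIs per 10000 plus 0.01 in the control pool (horizontal axis, log scale) and the MKO pool (vertical axis, log scale) for 44 genes of ER folding, degradation, translocation and export (circles) and 4 of the stress genes (squares) in the 3 hepatocyte-like clusters, with a line of equal values. Most points lie above the line in clusters 0 and 1 and below it in cluster 3.

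Other values moved with genotype in the same nuclei. The hepatocyte gene Alb went from 24.7 to 58.6 in cluster 0, from 62.6 to 68.8 in cluster 1 and from 45.2 to 45.7 in cluster 3, and Apoa1 was higher in the MKO pool in all 3, from 6.96 to 19.2, from 11.6 to 25.2 and from 12.6 to 22.7. In the 10 clusters that are not hepatocyte-like, Alb was higher in the MKO pool in 10 of 10 (medians 29.2 and 47.2) and Apoa1 in 10 of 10 (7.64 and 15.0). Free hepatocyte RNA can give such values, and so can doublets, and neither was measured apart. The zonated enzyme Ass1 went from 10.4 to 3.61 in cluster 1, but only from 3.40 to 2.94 in cluster 0 and from 7.26 to 6.84 in cluster 3. Other hepatocyte markers did not all follow it. Tat went from 8.37 to 5.64 in cluster 1 and from 8.21 to 11.8 in cluster 3. Pck1 went from 13.9 to 13.1 in cluster 1 and from 11.4 to 18.3 in cluster 3. The part of free RNA and of a different make-up of the clusters in the values of the stress genes was not tested. The sources used here do not give the nuclei per cluster, and no mean over all hepatocyte-like nuclei was formed to set beside bulk liver.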

How the data were processed

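The submitters' processing notes name the build mm10 and the tools RSEM 1.3.3, STAR, FastQC and DESeq2, and Seurat 4.0.1 and Cell Ranger, without roles, settings or counting strand. In bulk, the authors deposited a signal: counts per gene scaled by a size factor for each library. Dividing by the value of 1 read (0.963 to 1.22) gave whole reads, to within 0.01, in 100% of cases. The authors' log2 fold changes and p-values, as deposited, were used only where named. For nuclei, the authors deposited another signal, means per cluster whose columns each sum to 10000; the sources used here do not give nuclei per cluster, filters or doublet removal.

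limma 3.58.1 (limma-trend, R 4.3.3) was fitted to log2(value + 1) over 15249 genes with a mean of at least 1 (34 left out), with genotype as the only term and Benjamini-Hochberg adjustment, calling genes at an adjusted p under 0.05. edgeR 4.0.16 (quasi-likelihood) and DESeq2 1.42.0 on recovered reads, other scalings, filters and pseudocounts, a replicate block and leaving out libraries were alternatives. The fits were tested on simulated counts with the same dispersion for every gene and no outlying library. That test therefore does not cover spreads as wide as that of Asns or a library that stands apart. The labels number the replicates but do not call them separate animals, so a p-value covers only the spread among these libraries, which may be technical. A cluster was named where at least 3 markers of a type were 2-fold enriched in both pools and markers of another type did not lead it. Named genes were the 10, the called or else the 2 smallest-p members and the member of each list with the highest mean, and the 3 most alike genes. The 10 genes, lists and markers were chosen with earlier results of these data known. Loci are from GENCODE vM21 (GRCm38, the mm10 build).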

Additional observations from a re-analysis of the deposited data

Results flagged for a closer look

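The MKO to control ratio differed in sign between clusters for 3 of the stress genes, the only ones with a ratio in any cluster. How many of all genes change sign in this way was not counted, so the change is not shown to be particular to them. The differences between clusters were not tested, since each genotype is 1 pool. Herpud1 had a log2 ratio of 1.24 in hepatocyte-like cluster 0 and -1.45 in hepatocyte-like cluster 3. Hsp90b1 was at 1.16 in cluster 1 and -0.36 in cluster 3. Hspa5 was at 1.24 in cluster 1 and -0.0514 in the B and plasma cell-like cluster 8, a value close to 0.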

How the results depend on the processing

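The bulk test gave 465 calls over all genes, 452 higher and 13 lower. Leaving out 1 library gave 180 to 441 calls, 175 to 410 higher and 5 to 31 lower. The 2 settings below that leave out control 2 were chosen after seeing the data. With control 2 and MKO 1 both left out there were 183 calls, 175 higher and 8 lower; edgeR without control 2 gave 198, 193 higher and 5 lower; DESeq2 gave 50 lower calls.

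Of the 10 stress genes, DESeq2 called 1, Dnajb9 (-0.60, adjusted p = 0.0397), and the fit with the replicate number as a block called 1, Dnajb9 (adjusted p = 0.0440), beside 408 calls over all genes; every leave-one-out fit called 0. The cause was not tested. Same-numbered libraries did not deviate together (correlations 0.0557, -0.0300 and -0.109), so the numbers were not taken to pair the samples. Of the 115 pathway genes, leaving out 1 library gave 0 to 2 calls: Pdia6 (-0.90) and Sdf2l1 (-1.16) without control 3, and Gdf15 (-1.39) without MKO 1. With control 2 and MKO 1 left out there was 1, Gdf15 (-1.50).

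Some fold changes near 0 or with a wide spread changed sign. With control 2 and MKO 1 left out these were Chac1 (0.15), Asns (1.06), Ppp1r15b (0.0242), Atf5 (0.0879), Aars (0.0192) and P4hb (0.13). In edgeR without control 2 these were Chac1 (0.53), Asns (0.35) and P4hb (0.0183). Under upper quartile scaling these were Ppp1r15b (0.0145), Atf5 (0.0222) and Hspa8 (0.0013). Leaving out 1 library gave ranges of -0.0219 to 0.10 for Atf4, -0.36 to 0.14 for Ddit3, -0.72 to 0.45 for Chac1, -1.71 to 0.19 for Asns, -0.58 to 0.0116 for Hspa5, -0.0884 to 0.0007 for Ppp1r15b, -0.0382 to 0.12 for Creb3l3, -0.14 to 0.11 for Atf5, -0.25 to 0.0202 for P4hb and -0.17 to 0.0929 for Hspa8. Xbp1, Trib3, Hsp90b1, Dnajb9 and Herpud1 were below 0 in all 17 alternatives.

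In nuclei, lowering the level to the 75th percentile gave 2 values at least 2-fold lower in place of 1, the other being Xbp1 in cluster 8 (-1.09), and 5 at least 2-fold higher in place of 4, the other being Herpud1 in cluster 11 (1.02), outside the hepatocyte-like clusters. Depth behind the cluster means is unknown, which limits what the scarce genes can show, and 3 libraries per genotype limit the bulk test.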
